A study of Homo sapiens with 12 samples.

Results

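The pyruvate dehydrogenase complex and the enzymes that switch it on and off were examined in CAOV3, an ovarian carcinoma line that the labels call epithelial and serous of high grade. The cells were given ovarian cancer ascites, the fibrate drug bezafibrate, or both. Ascites is the fluid that gathers in the abdomen of patients with this cancer. The members are 9 genes taken by symbol from the count tables, of 19677 genes listed: the kinases PDK1, PDK2, PDK3 and PDK4, the phosphatases PDP1 and PDP2, and the subunit genes PDHA1, PDHB and DLAT. All 9 had counts enough to be tested. The 12 libraries came from 4 groups of 3: control cells given DMSO, the solvent, with no time on their label; cells given 10% ascites and DMSO for 16 hours; cells given 200 uM bezafibrate for 16 hours; and cells given the drug and the ascites together at those amounts for 16 hours, called the combination here. All groups were wild-type cells of this line, grown in DMEM with 10% fetal bovine serum, so every value describes 1 line. The labels name DMSO for the groups without the drug and not for those with it, so a contrast of drug against no drug includes any difference in solvent. They do not say how many patients the ascites came from or whether replicates were separate cultures, so p-values measure only the spread between these libraries, which may be technical.

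The complex sits in the mitochondrial matrix and turns pyruvate into acetyl-CoA, the step that commits carbon from glucose to the citric acid cycle or to fat. The kinases phosphorylate its alpha subunit and switch it off, and the phosphatases remove the phosphate and switch it on again. PDK4 is a textbook target of PPAR receptors, which fibrates activate, and is known to rise in fasting, when tissues burn fat and spare glucose. PDK1 is best known as a target of the hypoxia factor HIF1A in tumour cells.

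The DNA before the start sites of the 3 kinase genes that rose with the drug, PDK4, PDK1 and PDK3, is shown first, with that of PDHA1, the kinases' substrate, which was not called. The sequences are from RefSeq (GRCh38.p14), read 5′ to 3′ on the gene's strand, and bases within exons of the GENCODE 29 annotation were left out. Capitals mark 3 short motifs on either strand: the GC box GGGCGG, the box named for its letters CCAAT, and the core of a HIF site, ACGTG.
PDK4: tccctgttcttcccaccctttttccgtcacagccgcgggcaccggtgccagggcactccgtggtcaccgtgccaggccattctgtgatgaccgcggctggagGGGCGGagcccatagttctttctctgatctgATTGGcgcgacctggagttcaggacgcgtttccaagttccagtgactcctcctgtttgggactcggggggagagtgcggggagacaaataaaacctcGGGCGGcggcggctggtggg
PDK1: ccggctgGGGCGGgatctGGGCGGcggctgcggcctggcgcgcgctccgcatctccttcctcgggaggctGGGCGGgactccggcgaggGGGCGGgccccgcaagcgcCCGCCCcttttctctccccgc
PDK3: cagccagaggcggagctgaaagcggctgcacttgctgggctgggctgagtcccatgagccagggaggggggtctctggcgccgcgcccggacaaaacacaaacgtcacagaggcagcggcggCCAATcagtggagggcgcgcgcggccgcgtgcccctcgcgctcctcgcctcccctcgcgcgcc
PDHA1: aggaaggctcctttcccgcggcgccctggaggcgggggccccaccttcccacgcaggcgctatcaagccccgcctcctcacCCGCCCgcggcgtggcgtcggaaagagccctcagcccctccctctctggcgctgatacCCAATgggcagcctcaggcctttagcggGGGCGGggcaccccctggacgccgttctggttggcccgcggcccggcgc
They lie at chr7:95596517-95596766 (minus strand), chr2:172555840-172555968, chrX:24465036-24465220 and chrX:19343677-19343892 (plus strand). The PDK4 stretch runs up to the RefSeq start site. Those of PDK1, PDK3 and PDHA1 end at positions -122, -66 and -35 from it, so the bases next to the start are not shown. The PDK1 stretch lies within the GENCODE span of the gene. The PDK4 stretch held 2 GC boxes and 1 CCAAT box. The PDK1 stretch held 5 GC boxes and 0 CCAAT boxes.

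RefSeq windows of 250 bases before the start were found for 8 of the 9 members. PPAR receptors with their RXR partner bind a direct repeat of AGGTCA with 1 base between the units (DR1). On either strand, the exact DR1 was in 0 of the 8 windows and in 0.0171% of all 35116 windows. A looser DR1, with any base at the fourth place of each unit, was in 0 and in 0.268%. The single unit AGGTCA, which every exact DR1 holds, was also in 0 of the 8, against 12.1% of all windows. ACGTG, which can overlap its own match on the other strand, was in PDK1 (2 matches), PDK3 (1), PDP2 (3), PDHB (3) and DLAT (1), and in 18.5% of all windows. The matches of PDK1 and PDK3 lie in bases not printed above. The GC box was in each of the 8 windows but that of DLAT, and in 42.6% of all windows. The CCAAT box was in PDK3, PDK4, PDP2, PDHA1 and PDHB, and in 32% of all windows. No match says only that these letters are not in this window.

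Total counts ranged from 11831093 to 18762759 per library, and the bezafibrate libraries, at 14639939 to 18762759, were on the whole deeper than the control ones, at 12550494 to 14653487. Values are CPM, counts scaled to library size and made comparable between libraries, and n counts libraries. Replicates of a group differed by more than sampling noise in all 12 pairs. Combination replicate 3 stood apart on the second principal component (-22.4, the others from -4.37 to 9.84). Of the 9 members, 6 were highest there within the combination group, among them PDK4 at 147 CPM, DLAT at 163 and PDP2 at 47.2. The share of all genes highest there was not counted. The epithelial markers EPCAM, CDH1, KRT7, KRT8 and KRT18 were present, with a summed level from 5562 to 5665 CPM in control, 5723 to 5870 with ascites, 5718 to 5978 with the drug and 6171 to 6235 in the combination. Of these, CDH1 had a mean of 18.6 CPM in control, 15.9 with ascites, 53.3 with the drug and 51.7 in the combination, and KRT7 of 762, 803, 1118 and 1188 CPM. In the same order KRT8 was at 3005, 3129, 2914 and 3082 CPM, KRT18 at 1784, 1838, 1720 and 1845, and EPCAM at 27.6, 30.8, 31.2 and 31.3. The 4 serous lineage markers PAX8, WT1, MUC16 and SOX17 summed to at most 1.33 CPM, with SOX17 at 0 in all libraries, so the defining markers of the labelled serous type were at or near 0. Of 16 markers of blood, fibroblast and mesothelial cells, PTPRC, CD3E, TYROBP, PPBP and PF4 were at 0 throughout. The remaining blood markers were low, with group means of 2.19 to 2.94 CPM for CD14 and 0.501 to 0.923 for LYZ. Those of HBA1 were 0.423 to 0.626 CPM and those of HBB 0.0179 to 0.228. The 3 mesothelial markers summed to 0.854 to 2.89 CPM per library. The summed level of the 4 fibroblast markers was from 9.55 to 10.9 CPM in control, 10.3 to 11.5 with ascites, 6.08 to 6.60 with the drug and 5.23 to 6.86 in the combination. It was thus lower in all drug libraries. The sum was almost all COL1A1 and COL3A1, as COL1A2 and DCN had means of at most 0.0283 CPM in any group. Of the epithelial markers CDH1 and KRT7 rose with the drug, while KRT8 and KRT18 were lower with it in cells without ascites. The part of these shifts and of the fibroblast sum in the drug results was not tested. In bulk RNA, fewer cells of a type and less RNA per cell cannot be told apart.

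Per length, the subunits were more abundant than the kinases in control cells, least so against PDK3. In CPM per kilobase of exon, means of the 3 control libraries were 31.7 for PDHA1, the alpha subunit of the first enzyme, 29.4 for DLAT, the acetyltransferase core, and 13.6 for PDHB, the beta subunit. The phosphatase PDP1 followed at 11, then the kinase PDK3 at 6.30 and the phosphatase PDP2 at 5.36. The other kinases were lowest, PDK2 at 2.66, PDK1 at 1.87 and PDK4 at 1.83. The ranges of PDK1 (1.76 to 1.98) and PDK4 (1.74 to 1.89) overlapped, so these neighbours did not differ beyond their spread, and all others did not overlap with the next in order. The order depends on the length used. By the principal transcript PDHB, at 41.9, overlapped PDHA1, at 43.0, PDK3, at 16.2, lay above PDP1, at 14.4, and PDK4, at 2.31, above PDK1, at 1.96. Per kilobase of all exons PDK4 ranked 9502 of 12440 genes in control cells and 1544 of 12440 with bezafibrate, close to PDHA1 at 1483 and DLAT at 1542.

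**Figure D1:**
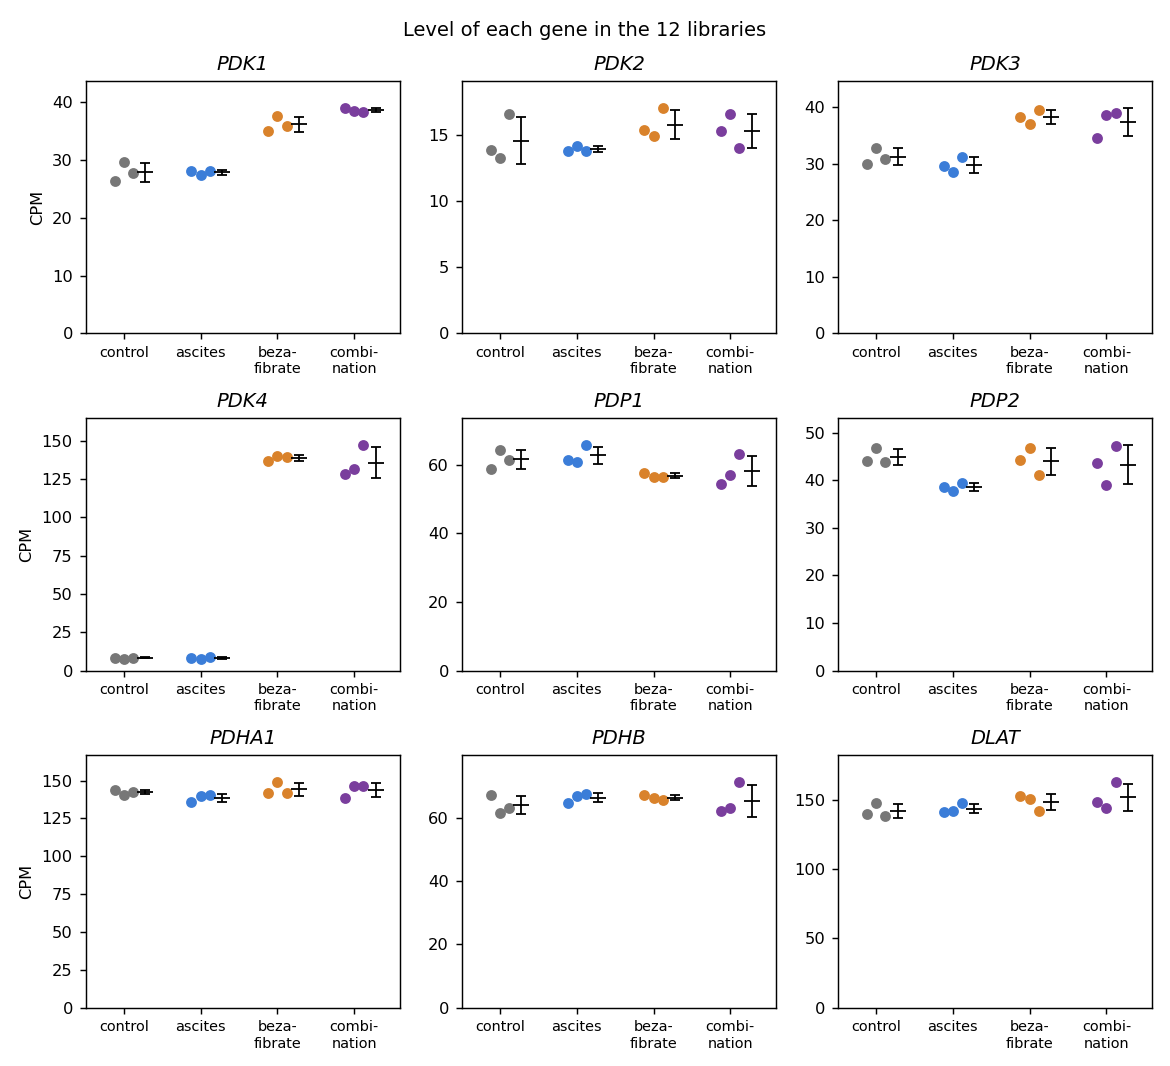
CPM of each of the 9 genes by group, with each point 1 library and the black bar the mean with its SD (n = 3); each axis starts at 0 and has its own scale. PDK4 lies at 7.34 to 8.69 CPM in the 6 libraries without bezafibrate and at 128 to 147 CPM in the 6 with it, and the panels of PDHA1, PDHB and DLAT are nearly flat.

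With bezafibrate and no ascites, 3 of the 4 kinase genes were higher and no phosphatase or subunit gene was called. PDK4, PDK1 and PDK3 rose, PDK2 did not pass the test, and the rise of PDK4 was by far the largest. With edgeR's quasi-likelihood test 3 of the 9 members were called, all 3 higher, beside 10.1% of all 12470 genes called higher in this contrast. The median log2 fold change was 0.07 over the 9 members and -0.00 over all genes tested.

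PDK4 (ENSG00000004799.8; GRCh38 chromosome 7, 95583499 to 95596491, minus strand) had 125, 107 and 106 counts in the control libraries, or 8.52, 7.86 and 8.41 CPM. With bezafibrate it had 2266, 2602 and 2034 counts, or 137, 140.0 and 139.7 CPM. The lowest drug library was thus many times the highest control library, and the drug replicates lay within a few CPM of each other. The fold was 16.8, which is 4.07 on the log2 scale (edgeR adjusted p 6.14e-34). An SE taken from F is too small for so large a change, so the 95% interval of 15.2 to 18.5 is too narrow. It ranked 3 from the highest log2 fold change among 12470 genes.

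PDK1 (ENSG00000152256.14; chromosome 2, 172555373 to 172608669), the hypoxia-linked kinase, was at 26.2, 29.5 and 27.7 CPM in control and at 35.0, 37.5 and 35.9 CPM with the drug. The groups did not overlap, and the log2 fold change was 0.38 (SE 0.061 and edgeR adjusted p 8.26e-06). Exons of PDK1 share 445 bases with AC078883.1 on the opposite strand. That gene is not among those counted, so its level is not known. PDK3 (ENSG00000067992.17; chromosome X, 24465221 to 24541862), a kinase with narrow tissue expression, was at 29.9, 32.8 and 30.9 CPM in control and at 38.2, 37.0 and 39.4 CPM with the drug. These groups did not overlap either, and the log2 fold change was 0.29 (SE 0.063 and edgeR adjusted p 0.000568). Groups lay apart without overlap, drug above, for 17.2% of all genes tested. Against a null of a 1.2-fold change, a stricter question, PDK4 alone kept its call here, with PDK1 at an edgeR adjusted p of 0.155 and PDK3 at 1.

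PDK2 (ENSG00000005882.12; chromosome 17, 50094737 to 50112152), the widely expressed kinase, was at 13.8, 13.3 and 16.6 CPM in control and at 15.4, 15 and 17 CPM with the drug. The groups overlapped, and the log2 fold change of 0.12 had a 95% interval from -0.07 to 0.30 (edgeR adjusted p 0.47). That interval includes both 0 and the estimate for PDK3, and whether PDK2 responded differently from PDK1 or PDK3 was not tested. Its exons share 2113 bases with SAMD14 on the opposite strand, and the strand setting of the counting is not given in the sources used here. SAMD14 was at 0.442 CPM in control and 0.772 CPM with the drug, far under PDK2.

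The drug contrast within ascites, the combination against ascites, shares no library with the one above and gave nearly the same kinase changes. It called 3 of the 9 members, all higher, beside 10.5% of all genes called higher, and PDK4, PDK1 and PDK3 were the 3 in both. Genes called higher in both contrasts were 7.95% of those tested. Both contrasts took their spread from the same fit of all 12 libraries, so their p-values are not independent of each other.

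PDK4 was at 8.05, 7.34 and 8.69 CPM with ascites and at 128, 132 and 147 CPM in the combination. Its log2 fold change was 4.07 (edgeR adjusted p 1.02e-33). PDK1 was at 28.1, 27.3 and 28.1 CPM with ascites and at 38.9, 38.4 and 38.2 CPM in the combination, a log2 fold change of 0.47 (SE 0.062 and edgeR adjusted p 1.97e-07). PDK3 was at 29.5, 28.5 and 31.2 CPM with ascites and at 34.5, 38.6 and 38.9 CPM in the combination, a log2 fold change of 0.32 (SE 0.065 and edgeR adjusted p 0.000305). In these 3 genes every combination library lay above every ascites library, as was so for 16.0% of all genes tested. PDK2 was at 13.8, 14.2 and 13.8 CPM against 15.3, 16.6 and 14 CPM, with a log2 fold change of 0.13 and a 95% interval from -0.06 to 0.33 (edgeR adjusted p 0.401). Without combination replicate 3, the library that stood apart, PDK4 was at 4.01, PDK1 at 0.47 and PDK3 at 0.29, all 3 still called, and PDP1 was called as well. Against a null of a 1.2-fold change PDK3 lost its call here (edgeR adjusted p 0.784).

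**Figure D2:**
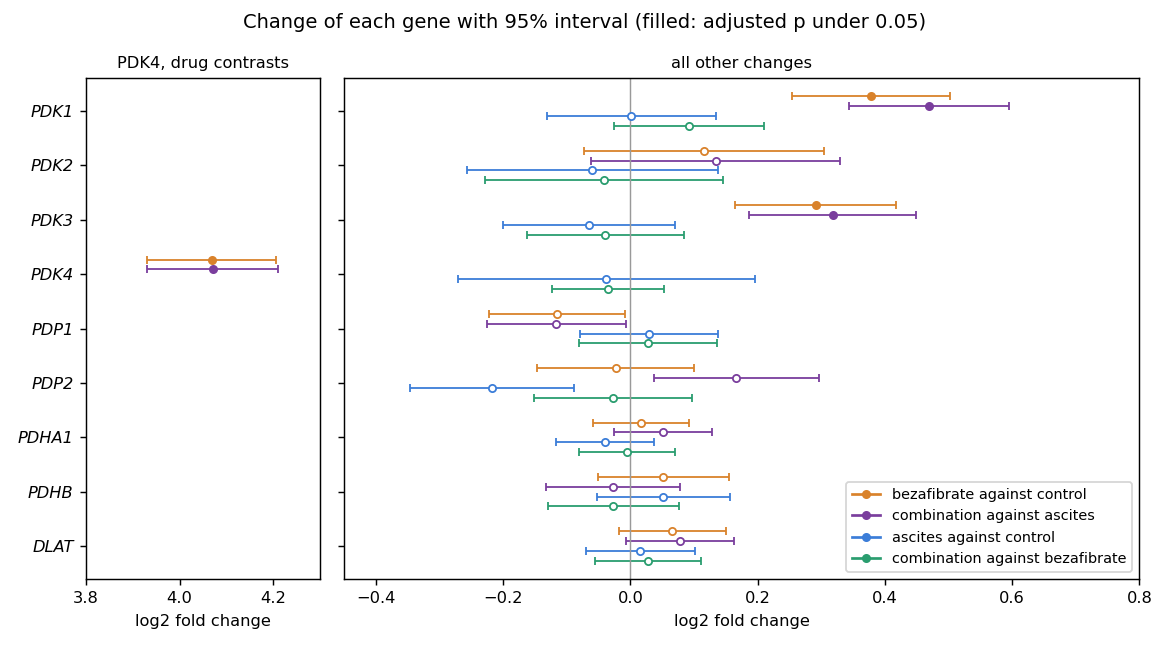
Log2 fold change of each gene in 4 contrasts with its 95% interval, filled where the edgeR adjusted p is under 0.05. The left panel has its own axis for PDK4 in the drug contrasts, where the intervals are too narrow. The drug moved PDK4 by 4.07 without and 4.07 with ascites, PDK1 by 0.38 and 0.47 and PDK3 by 0.29 and 0.32, while no point of the ascites contrasts is filled.

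With the 2 drug contrasts averaged, which uses all 12 libraries, PDK4 rose by a log2 fold change of 4.07. PDK1 rose by 0.42 (SE 0.044 and edgeR adjusted p 3.61e-10) and PDK3 by 0.30 (SE 0.045 and edgeR adjusted p 1.02e-06). PDK2 was at 0.12 with a 95% interval from -0.01 to 0.26 (edgeR adjusted p 0.172). In this average 4 members were called, 3 higher and 1 lower, beside 28.3% of all genes called. The combination against control, which shares libraries with the contrasts above, had log2 fold changes of 4.03 for PDK4, 0.47 for PDK1 and 0.25 for PDK3, and these 3 were called (PDK3 not against a null of a 1.2-fold change, edgeR adjusted p 1), beside 10.3% of all genes called higher and 18.2% called in either direction.

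The make-up of the kinase transcripts shifted with the drug. PDK3 held 49.8% ± 1.95 (SD, n = 3) of the summed CPM per kilobase of the 4 kinases in control cells, PDK2 21% ± 2.18, PDK1 14.8% ± 0.661 and PDK4 14.5% ± 0.918. With bezafibrate PDK4 held 70.1, 70.9 and 69.6% in the 3 libraries, PDK3 17.7%, PDK2 6.58% and PDK1 5.55% on average. PDK3 was the largest part in each of the 6 libraries without the drug and PDK4 in each of the 6 with it. Ascites left PDK4 at 14.6, 13.8 and 15.2%, and the combination had it at 69.6, 68.5 and 71.5%. Divided by the length of the principal transcript in place of all exons, the PDK4 share was 9.35% in control and 58.9% with the drug, and with no division by length 10.1 and 60.6%. PDK3 remained the largest in control and PDK4 the largest with the drug under both, but the order of the other kinases in control depended on the length: with no division PDK1, at 34.0%, lay close to PDK3, at 38.1%.

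The summed kinase level was 12.2, 12.8 and 13 CPM per kilobase in control and 43.1, 43.7 and 44.4 with the drug. Without PDK4 the sum was 10.3, 11 and 11.1 in control and 12.9, 12.7 and 13.5 with the drug, so most of the added level was PDK4. The phosphatase sum was 15.7, 17.1 and 16.2 in control and 15.6, 15.6 and 15 with the drug. The ratio of kinase to phosphatase transcripts per kilobase went from 0.775 ± 0.0262 to 2.84 ± 0.107 (SD, n = 3), and from 0.773 ± 0.00648 with ascites to 2.77 ± 0.0925 in the combination. By the length of the principal transcript the ratio was 1.2 ± 0.0297 in control and 3.39 ± 0.133 with the drug, so whether it lay below 1 in control depended on the length, and that it was higher with the drug did not. With no division by length it was 0.770 and 2.27. These are transcript ratios and carry no test, and protein or activity was not measured.

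**Figure D3:**
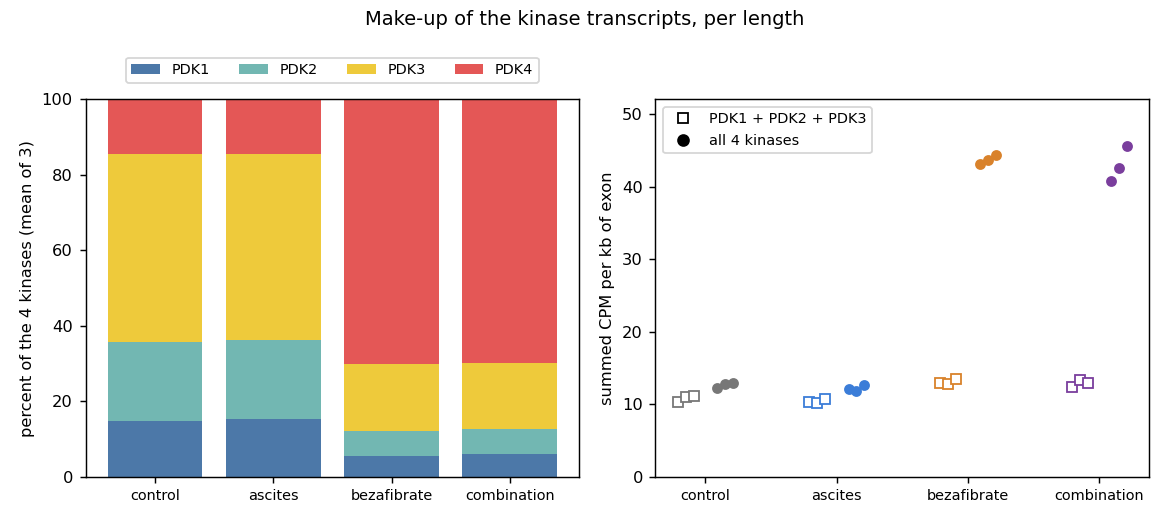
Left, the mean share of each kinase in the summed CPM per kilobase of the 4 kinases by group (n = 3); right, that sum in each library (filled circles) and the sum without PDK4 (open squares). The PDK4 share goes from 14.5% in control to 70.2% with bezafibrate, and the open squares stay between 10.2 and 13.5 in all 12 libraries.

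The phosphatase genes moved little. PDP1 (ENSG00000164951.16), the calcium-stimulated phosphatase, was at 58.8, 64.3 and 61.5 CPM in control and at 57.6, 56.3 and 56.3 CPM with the drug. All drug libraries lay just below all control ones, as did those of 16.3% of all genes, but PDP1 was not called (log2 fold change -0.12, SE 0.053 and edgeR adjusted p 0.144). In the combination against ascites it was at -0.12 again (edgeR adjusted p 0.147), at 54.5, 56.9 and 63.0 CPM against 61.4, 60.9 and 65.6 CPM. In the averaged drug effect PDP1 fell by 0.12 on the log2 scale (SE 0.038 and edgeR adjusted p 0.0187). That call was lost without control replicate 2 (adjusted p 0.0707), without ascites replicate 3 (0.0692), without combination replicate 1 (0.0788), and by DESeq2 (0.0635), always with the same sign. Without combination replicate 3 it was called in the combination against ascites (-0.18 and edgeR adjusted p 0.0166).

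PDP2 (ENSG00000172840.7), the second phosphatase, was at 44.0, 46.8 and 43.7 CPM in control and at 44.2, 46.7 and 41.1 CPM with the drug, with no call (log2 fold change -0.02 and edgeR adjusted p 0.862). With ascites it was at 38.6, 37.6 and 39.4 CPM, below all control libraries, and in the combination at 43.5, 39.1 and 47.2 CPM. Its log2 fold change of -0.22 in ascites against control (SE 0.063) had an unadjusted p of 0.00157 and an edgeR adjusted p of 0.46. In the combination against ascites it was at 0.17 (edgeR adjusted p 0.0678), and without combination replicate 2 it was called there, at 0.23 (edgeR adjusted p 0.0139). That fit keeps combination replicate 3, where PDP2 was highest within its group.

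None of the 3 subunit genes was called in any of the 8 contrasts fitted. PDHA1 (ENSG00000131828.14; chromosome X, 19343893 to 19361705) was at 144, 141 and 143 CPM in control and at 141, 149 and 142 CPM with the drug, a log2 fold change of 0.02 with a 95% interval from -0.06 to 0.09. PDHB was at 67.2, 61.6 and 63.3 CPM against 67.2, 66.5 and 65.6 CPM, at 0.05 with an interval from -0.05 to 0.15. DLAT was at 140.0, 148 and 138 CPM against 153, 151 and 142 CPM, at 0.07 with an interval from -0.02 to 0.15. All 3 groups of values overlapped, and intervals of this width leave room for changes of up to about the size of the upper bound. In the averaged drug effect DLAT was at 0.07 (SE 0.029 and edgeR adjusted p 0.0637). It was called there when control replicate 2, bezafibrate replicate 3 or combination replicate 1 or 2 was left out (adjusted p from 0.024 to 0.0434). It was also called in the combination against control without combination replicate 2 (0.13 and edgeR adjusted p 0.0464). Each of these fits keeps combination replicate 3, where DLAT was highest within its group. PDHA1 shares 956 exon bases with MAP3K15 and DLAT 212 with PIH1D2 on the opposite strand, but neither neighbour was above 1.05 CPM on average in any group. PDHB shares 360 with AC135507.1 on the opposite strand, which is not among the genes counted, so its level is not known.

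Ascites alone called 0 of the 9 members with edgeR, DESeq2 and limma-voom alike, beside 0.0882% of all genes called by edgeR. In edgeR 1 member, PDP2, had an unadjusted p under 0.05, as did 6.01% of all genes. PDK4 had a log2 fold change of -0.04 with a 95% interval from -0.27 to 0.20, and PDK1 of 0.00 with an interval from -0.13 to 0.13. PDK3 was at -0.07 (-0.20 to 0.07) and PDK2 at -0.06 (-0.26 to 0.14). PDHA1, at 136, 139.6 and 140.4 CPM with ascites, lay just below the control libraries, as did PDP2 and 7.06% of all genes. The median over the members was -0.04, and -0.00 over all genes.

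In drug-treated cells ascites again called 0 of the 9 members with edgeR, DESeq2 and limma-voom, beside 0.128% of all genes by edgeR. An unadjusted p under 0.05 was seen for 0 members, beside 4.79% of all genes. PDK4 was at -0.03 with a 95% interval from -0.12 to 0.05. PDK1 lay higher in each combination library than in any bezafibrate library, as did 4.44% of all genes, at 0.09 (-0.03 to 0.21 and edgeR adjusted p 1.00). The averaged ascites effect called 0 members with each of the 3 tools as well, beside 0.281% of all genes by edgeR. Only PDP2 had an unadjusted edgeR p under 0.05 (0.00868, log2 fold change -0.12), beside 6.97% of all genes.

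The interaction, which asks whether the drug's change differed between cells with and without ascites, called 0 members with the 3 tools, beside 0% of all genes by edgeR. For PDK4 the difference was 0.00 with a 95% interval from -0.24 to 0.25, so a change of its response by more than about 1.19-fold lies outside the interval. The differences were 0.09 (-0.09 to 0.27) for PDK1 and 0.03 (-0.16 to 0.21) for PDK3. PDP2 was the 1 member with an unadjusted p under 0.05, at 0.19 (p 0.0384 and edgeR adjusted p 0.999), beside 3.57% of all genes.

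The other genes around the complex were read from a list of 62, of which 60 were tested. With bezafibrate against control 9 of the 60 were called, 7 higher and 2 lower, beside 17.6% of all genes called in either direction. In the combination against ascites 11 were called, 9 higher and 2 lower, beside 17.8%. These shares are near the background, so the counts are no result about the list. In the averaged effect 18 were called, 13 higher and 5 lower, beside 28.3%. The list's median there was 0.01, and -0.00 over all genes.

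The rest of the complex was not called. In the averaged drug effect PDHX, which anchors the third enzyme, was at -0.01, DLD, the third enzyme itself, at 0.04, and PDPR, the regulatory subunit of the phosphatase, at 0.03. PDPR has near-identical pseudogene copies, so its value is uncertain. PDHX shares 259 exon bases with APIP and DLD 70 with LAMB1, both well expressed, so their values are uncertain too. PDHA2, the testis form of the alpha subunit, had 0 counts in the 12 libraries, which allows up to 0.0173 CPM over all of them, for counting error only.

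Among genes that move or use pyruvate and lactate, 6 of 12 were called in the averaged drug effect, 4 higher and 2 lower, beside 28.3% of all genes called. PC, pyruvate carboxylase, which competes with the complex for pyruvate, went from 34.4, 32.0 and 31.4 CPM in control to 55.0, 53.4 and 50.4 CPM with the drug. Its averaged log2 fold change was 0.65 (SE 0.042 and edgeR adjusted p 1.47e-15), the largest of the list. GPT2, which converts pyruvate to alanine, rose by 0.24, SLC16A3, a lactate exporter, by 0.23, and MPC2, a subunit of the mitochondrial pyruvate carrier, by 0.17. The 2 genes called lower had smaller changes than these and are not named here. Of the citric acid cycle, 5 of 14 were called, a share near that of all genes, all 5 higher, among them SUCLA2 at 0.14, IDH3A at 0.13 and SDHD at 0.09 (edgeR adjusted p 0.00438, 0.000105 and 0.027). Among sister complexes 2 of 9 were called, OGDH at 0.17 and BCKDHA at -0.13. Of 10 genes for the lipoate and thiamine cofactors, 0 were called, beside 28.3% of all genes. Of these 10, 2 had an unadjusted p under 0.05, beside 37.4% of all genes.

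Of 12 transcription factors and coactivators linked to these kinases, 5 were called in the averaged drug effect, again beside 28.3% of all genes. PPARD rose by 0.55 (edgeR adjusted p 1.66e-07), at 8.93, 10.4 and 10.2 CPM in control and 14.6, 14.6 and 16.3 CPM with the drug. PPARG fell by 0.38 (edgeR adjusted p 4.69e-12), from 90.3, 87.9 and 91.2 CPM to 63.5, 71.2 and 71.6 CPM. NR3C1, the glucocorticoid receptor, fell by 0.32, and ESRRA, which is known to act on PDK4, rose by 0.18. PPARA was at 0.15 and not called (edgeR adjusted p 0.338). With ascites 0 of the 60 genes were called by edgeR, DESeq2 or limma-voom, against control, in drug-treated cells and on average, with 1, 2 and 4 at an unadjusted p under 0.05, beside 6.01, 4.79 and 6.97% of all genes. In the interaction the count was 0 as well, with 1 at an unadjusted p under 0.05, beside 3.57% of all genes.

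**Figure D4:**
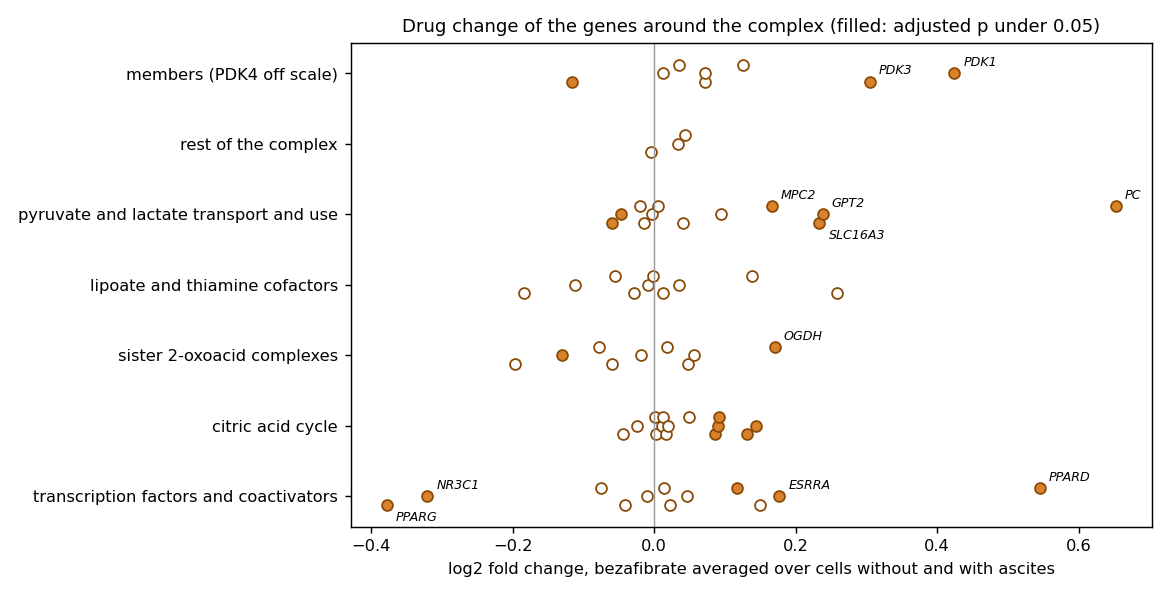
Log2 fold change of each tested gene in the averaged drug effect, by list, filled where the edgeR adjusted p is under 0.05; PDK4, at 4.07, lies off the scale. PC at 0.65 and PPARD at 0.55 are the highest filled points outside the members, and the rest of the complex has none.

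The genes whose log2 CPM followed that of PDK4 most closely over the 12 libraries, among 11858 with a mean of at least 1 CPM, were SLC38A4, PLIN2, FABP4, ANGPTL4, FABP3, TSPAN3, FABP5 and CREB3L3. Pearson's r ran from 0.999 for SLC38A4 to 0.998 for CREB3L3. The libraries fall into 6 with and 6 without the drug and share that difference, so these values mostly describe it. The size of the drug change was not shared: in bezafibrate against control the log2 fold change was 3.69 for FABP4, a fatty acid carrier, 3.6 for ANGPTL4, a lipase inhibitor, 2.73 for PLIN2, a lipid droplet coat protein, and 0.42 for TSPAN3, a membrane protein.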

How the data were processed

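RNA from 12 CAOV3 libraries was sequenced, and for each library the authors deposited a table of gene counts in whole numbers. The submitters' processing notes name Trimmomatic 0.39, STAR 2.7.9a, RSEM 1.3.3 and DESeq2 1.28.1 and the build GRCh38, without roles; the annotation, the strand setting and whether counts were rounded from estimates are not given in the sources used here. Groups and replicate numbers come from sample titles.

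Genes were kept by filterByExpr (minimum count 10, minimum total 15), which left 12470. Libraries were scaled by TMM, and contrasts tested by quasi-likelihood F tests with robust estimation in edgeR 4.0.16 (R 4.3.3) over all 12 libraries, 1 mean per group, 8 residual degrees of freedom. A gene was called where its p, adjusted over all tested genes by Benjamini-Hochberg, was under 0.05. The SE is the size of the log2 fold change over the root of F. For PDK4 it was 0.048 in the averaged drug effect and 0.061 in the averaged ascites effect, which weigh the same libraries equally. It is thus too small for a change as large as that of PDK4 with the drug. Levels per kilobase used the union of GENCODE 29 exons, found for 12440 tested genes. Coordinates are from GENCODE 29, matched by Ensembl identifier without its version.

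Tests of edgeR, and limma 3.58.1 and DESeq2 1.42.0 as alternatives, are compared in the closing section. The named genes are the 9 members, the rest of the complex, up to 4 called genes per list with the largest change, and for likeness the 8 genes with the highest r for PDK4 and 5 for each other member called in both drug contrasts; some genes the rule names are not reported here. Members and lists were chosen with earlier results of these data known. Replicates of a group were compared by a chi-square test of their counts (minimum 20 per gene), at 1.44 to 4.45 per degree of freedom. Total counts limit precision most for PDK4 without the drug, with 94 to 129 counts. Sequences of proteins were not used here.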

Additional observations from a re-analysis of the deposited data

How the results depend on the processing

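Of 72 results (9 genes in 8 contrasts), 13 were called, 7 of these under every alternative. Of the uncalled, 55 stayed so under every alternative. Counted once for each result in each alternative, calls were lost 11 times and gained 7 times. PDP1 in the averaged drug effect made up 6 of the 11 losses. A change of direction was seen for 0 of the results. PDK4 kept its call in all alternatives of both drug contrasts, with log2 fold changes from 4.03 to 4.09 without and 4.01 to 4.13 with ascites. A test against a fold of 1.2, stricter by construction, left 1 member called with bezafibrate against control, 2 when the combination was set against ascites, 2 when set against control and 2 in the averaged drug effect. PDK3 was lost in all 4 contrasts, PDK1 in the first and PDP1 in the averaged effect. In the same test the other pathway genes numbered 3 in bezafibrate against control, 1 when the combination was set against ascites, 1 when set against control and 3 in the average. An adjusted p under 0.01, also stricter, left 11 in the average. With 1 library left out, members called ranged from 3 to 3 in bezafibrate against control, 3 to 4 when the combination was set against ascites, 3 to 4 against control and 3 to 5 in the average, and other pathway genes from 9 to 10, 9 to 13, 9 to 10 and 15 to 18. Same-numbered libraries of different groups did not deviate together (r over 0.1 in 1 of 18 pairs, from -0.23 to 0.14), and 3 of 12 libraries correlated best with their own number. The fit with the replicate block called the same counts of members, 3, 3, 3 and 4 in those contrasts and 0 elsewhere, with PDK4 at 4.07 for bezafibrate against control. The levels, shares and ratios by other lengths were added after seeing the data. Among members not called in the single drug contrasts, PDK2 had the largest SE, 0.093 and 0.097.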

Other observations

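By Pearson's r of log2 CPM over the 12 libraries, which share the drug difference, the 5 genes closest to PDK1 were KLF10 (r 0.986), PLAUR (0.985), LBH (0.984), FHOD3 (0.981) and SEPTIN11 (0.980). KLF10 is a growth factor-induced transcription factor and PLAUR the urokinase receptor. Their log2 fold changes in bezafibrate against control were from 0.30 for SEPTIN11 to 0.88 for FHOD3. Among the genes closest to PDK3 were AHNAK (r 0.980), PLXNA2 (0.977), SPRED1 (0.976), an inhibitor of MAPK signalling, and SLK (0.974). The log2 fold changes of these named genes were from 0.31 for SLK to 0.41 for AHNAK.

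The level of PDHA1 relative to PDHB, the other subunit of the first enzyme, depended on the length used. Per kilobase of all exons the ratio was 2.25, 2.40 and 2.37 in the control libraries, 2.20, 2.19 and 2.18 with ascites, 2.21, 2.35 and 2.27 with bezafibrate and 2.34, 2.44 and 2.16 in the combination. With the lengths of the principal transcripts, 3310 bases for PDHA1 and 1527 for PDHB in place of 4493 and 4717, the group means were 1.03, 0.963, 1.00 and 1.02 in that order. So these data do not show which subunit's transcript was the more abundant per length.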
